A study of Mus musculus with 10 samples.

Results

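The genes described here encode the contractile apparatus of smooth muscle and the intermediate filaments found with it: *Acta2*, *Tagln*, *Myl9*, *Myh11*, *Cnn1*, *Tpm1*, *Tpm2*, *Actg2*, *Des* and *Vim*. They were taken by gene symbol, and all 10 were found among the 25233 genes with a symbol in a table of 62322 entries. Hepatic stellate cells (HSCs), the vitamin A-storing mesenchymal cells of the liver, were compared in 10 RNA sequencing libraries, 5 of hypertrophied HSCs (hypHSCs) and 5 of quiescent HSCs (qHSCs). All mice were C57BL/6J males. The CDAHFD, a diet rich in fat and deficient in choline, had been given to the mice that yielded hypHSCs, for 13 weeks in hypHSC 1 and 2 (aged 19 weeks) and for 12 weeks in hypHSC 3, 4 and 5 (aged 18 weeks). Standard-diet mice yielded the qHSCs, at 36 weeks of age for qHSC 1, 2 and 5 and at 34 weeks for qHSC 3 and 4. No transgene was used, and the methods name no drug given to the mice other than the ketamine and xylazine of the anesthesia before perfusion. The hypHSCs were sorted by green fluorescence after a stronger digestion with antibiotics and the qHSCs by blue fluorescence, so diet, age, digestion and gate cannot be told apart. The hypHSC preparations were those with the most intact RNA, drawn from mice that gave more than one, and the mouse behind each library is not named, so n counts preparations and p-values measure the spread between these.

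In smooth muscle, myosin II pulls on thin filaments of actin that are covered by tropomyosin, and phosphorylation of the myosin regulatory light chain switches the motor on. Calponin and transgelin sit on the thin filament, while desmin and vimentin form the intermediate filaments that hold the lattice together. Stellate cells that turn into myofibroblasts on liver injury are known for taking up this program, and *Acta2*, which encodes α-smooth muscle actin, is its customary marker. Many of these genes are driven by serum response factor (SRF), which binds an AT-rich motif named the CArG box together with myocardin-family coactivators.

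Promoter sequence is shown for *Acta2* and *Myl9*, since these were the genes in which such a motif was found. RefSeq promoters were found for 7 of the 10 genes, and the 250 bases before the start of each were searched on both strands. The capitals mark, in *Myl9*, 1 CArG box followed by 1 CArG-like box, in which 1 inner base is G or C, and, in *Acta2*, 2 CArG-like boxes.
Acta2 (GRCm38.p6, chr19:34255374-34255623, minus strand): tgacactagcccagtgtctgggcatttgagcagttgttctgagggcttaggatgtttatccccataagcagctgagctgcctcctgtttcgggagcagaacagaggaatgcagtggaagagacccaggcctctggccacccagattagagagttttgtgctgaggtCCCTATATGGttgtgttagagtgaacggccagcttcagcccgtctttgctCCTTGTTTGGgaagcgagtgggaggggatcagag
Myl9 (GRCm38.p6, chr2:156775214-156775463, plus strand): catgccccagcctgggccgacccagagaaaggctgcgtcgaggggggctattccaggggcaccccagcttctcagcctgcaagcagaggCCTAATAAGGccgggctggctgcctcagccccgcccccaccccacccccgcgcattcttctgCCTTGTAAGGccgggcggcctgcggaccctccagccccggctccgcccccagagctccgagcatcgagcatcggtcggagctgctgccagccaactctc
The boxes of *Myl9* began 161 and 99 bases before the start and those of *Acta2* 84 and 34 bases before it. Of the 32851 promoters of this length in the RefSeq table, 1.47% held a CArG box and 7.24% a CArG-like box. None was found in these windows for *Cnn1*, *Tpm1*, *Tpm2*, *Des* and *Vim*, which says only that these letters were not there. A TATAAA was present in *Vim*, as in 12.4% of all promoters, and a CATTCC, the core bound by TEAD factors, in *Acta2* and *Tpm1*, as in 12.6%. A match is a description of the sequence and was not tested as a binding site.

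The values are normalized counts, that is, reads per gene divided by 1 size factor for each library, and the depth was 30534719 to 43283589 reads on genes with a symbol in hypHSCs and 35640104 to 47317028 in qHSCs. The floor of detection was set at 3 reads, or 2.25 to 4.54 normalized counts by library, and accounts for counting error alone. Mitochondrial reads made up 12.8% of hypHSC 1, against 2.21% to 7.27% of the other hypHSCs and 1.25% to 1.61% of qHSCs. The summed level of 10 quiescent HSC markers was 751344 to 1387826 in qHSCs and 8683 to 24185 in hypHSCs, and all 10 were called lower. Macrophage markers moved the other way: their sum was 1119302 to 1613304 in hypHSCs and 5070 to 117851 in qHSCs, all 10 were called higher, and *Lyz2* alone reached 740305 to 940344 normalized counts in hypHSCs. None of the 10 markers of either list was at the floor in all libraries. These marker levels move with every difference between the groups given here, and their part in those differences was not tested. In bulk RNA, fewer cells of a type and less RNA per cell cannot be told apart.

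Most of the smooth muscle genes were lower in hypHSCs. Of the 8 genes abundant enough to be tested, *Tagln*, *Myl9*, *Myh11*, *Tpm2* and *Des* were called lower, 1 gene, *Vim*, was called higher, and *Acta2* and *Tpm1* did not pass the test. A call needed a log2 fold change of 1 or more in size and an adjusted p no higher than 0.05 (limma on log2(normalized count + 1), Benjamini-Hochberg adjustment over the 14630 genes tested). Over all genes tested, 21.7% were called lower and 17.8% higher. Of those calls 45.0% were higher, a share that became 32.4% with libraries scaled to equal totals and 12.2% when scaled on the reference genes *Hprt* and *Pgk1*. The same 5 genes were called lower under each of the 4 scalings tried. The median log2 fold change, hypHSCs over qHSCs, was -2.79 over the 8 genes and -0.20 over all genes tested. The libraries of the groups did not overlap for 6 of the 8, the same 6 that were called, against 39.5% of all genes tested. *Cnn1* and *Actg2* were too low to be tested.

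**Figure D1:**
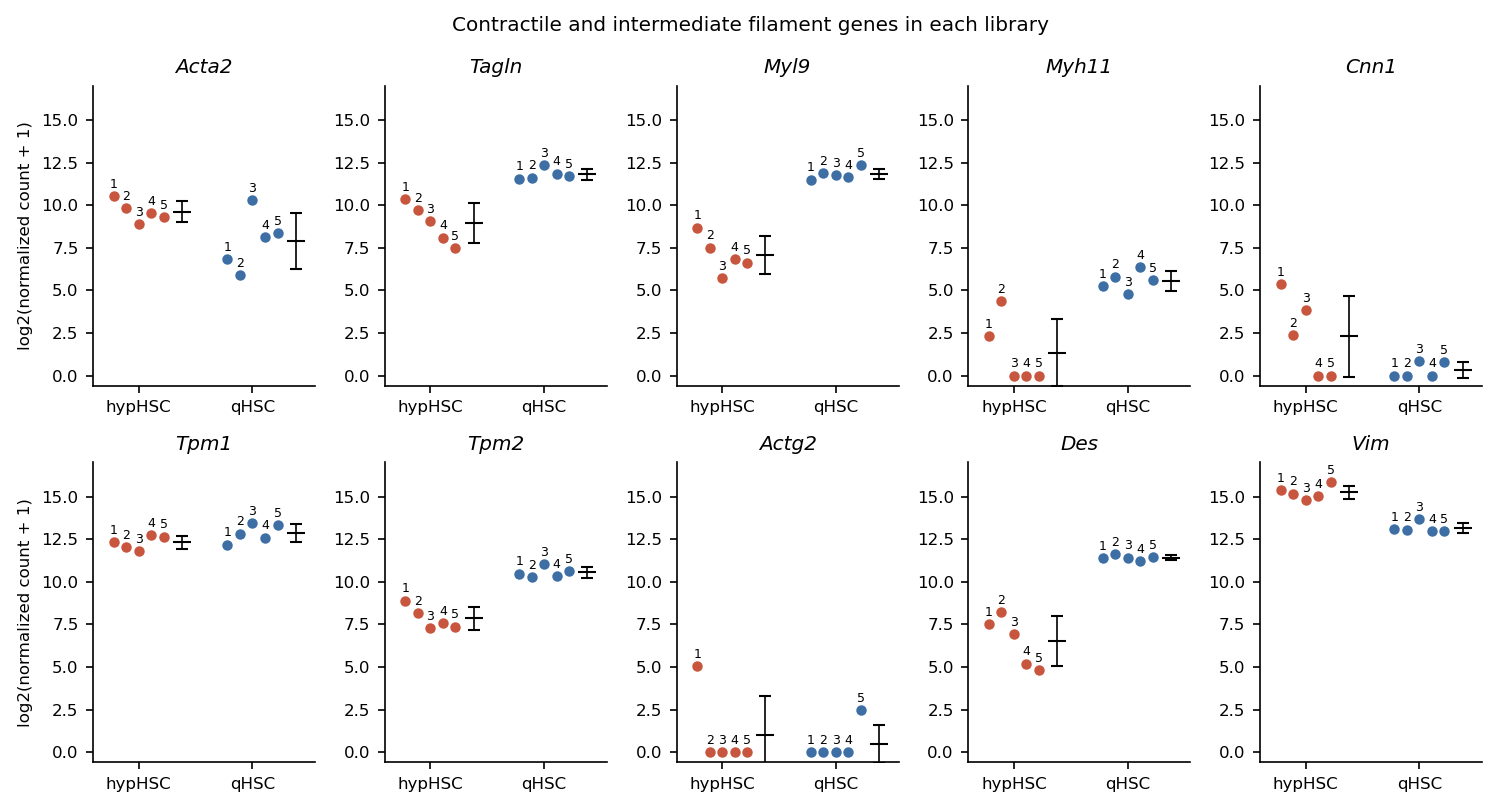
Level of each of the 10 genes in every library, as log2(normalized count + 1), in hypHSCs (red) and qHSCs (blue). Numbers give the replicate, and the bars to the right of the points show the mean and SD of 5 libraries. *Tagln*, *Myl9*, *Tpm2* and *Des* lie lower in all hypHSCs than in any qHSC and *Vim* lies higher, while qHSC 3 has an *Acta2* level within the range of hypHSCs.

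*Acta2* (chromosome 19, 34217736 to 34232773, GRCm39 as for all gene positions here) had 1473, 909, 472, 747 and 637 normalized counts in hypHSC 1 to 5 and 113, 58.8, 1259, 278 and 324 in qHSC 1 to 5. The groups overlapped through qHSC 3, which exceeded 4 of the 5 hypHSC libraries, whereas the other qHSC libraries were all below the hypHSCs. The log2 fold change was 1.72 (standard error 0.69, 95% interval 0.20 to 3.23), with an adjusted p = 0.0592 from limma and an exact two-sided permutation p = 0.0635, so the difference did not pass the test. Without qHSC 3 it was 2.32 (adjusted p = 0.00546 from limma) and was called, as it was with the qHSCs aged 36 weeks alone (2.59) or with the libraries scaled to the same upper quartile (1.83). Under DESeq2 and edgeR on the recovered reads it was 1.06 and 1.08 and was not called, and it shrank to 0.37 when the libraries were scaled on *Hprt* and *Pgk1*. *Stambpl1*, on the opposite strand, covers 9.33% of the exon bases of *Acta2*, and libraries without strand cannot separate their reads there. *Stambpl1* had 256 to 576 normalized counts in hypHSCs and 56.5 to 147 in qHSCs.

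*Actg2* (chromosome 6, 83489892 to 83513233), which encodes the γ-smooth muscle actin of the gut and other visceral muscle, was close to absent. It had 24 reads in hypHSC 1 and 6 in qHSC 5, and 0 in the other 8 libraries. No fold was taken. Among the other actins, the cytoplasmic *Actg1* rose (log2 fold change 1.30, standard error 0.20, adjusted p = 0.000279 from limma), but it lay just under the fold threshold when libraries were scaled to the same total (0.94) and turned to -0.05 when scaled on *Hprt* and *Pgk1*. *Actb*, the other cytoplasmic actin, ranged from 18213 to 296496 normalized counts in hypHSCs, a wider spread than the 85084 to 124051 in qHSCs, and did not pass the test. The cardiac actin *Actc1* stayed at or under the floor in all 10 libraries.

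The myosin genes of smooth muscle were lower in every hypHSC library. *Myl9* (chromosome 2, 156617338 to 156623577), the regulatory light chain whose phosphorylation starts contraction, had 409.6, 182, 52.4, 114 and 98.3 normalized counts in hypHSC 1 to 5 and 2906, 3797, 3515, 3223 and 5225 in qHSC 1 to 5. The groups did not overlap: hypHSC 1, the highest of the hypHSCs, was far below qHSC 1, the lowest of the qHSCs. Its log2 fold change was -4.75 (standard error 0.45, adjusted p = 1.02e-05 from limma), a 27.0-fold difference, with the exact permutation p at 0.00794, the smallest that 5 against 5 libraries allow. *Myh11* (chromosome 16, 14012391 to 14109272), the myosin heavy chain that defines mature smooth muscle, was low throughout. It had 3, 19, 0, 0 and 0 reads in hypHSC 1 to 5 and 41, 65, 34, 95 and 63 in qHSC 1 to 5. The libraries again did not overlap, but 4 of the 5 hypHSCs were at or under the floor, so the fitted change, -4.22 with a standard error of 0.90 (adjusted p = 0.00253 from limma), depends on the pseudocount. With a pseudocount of 5 it was -2.73, and DESeq2 and edgeR on the recovered reads gave -3.37 and -3.33.

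The other myosin chains listed did not follow *Myl9* and *Myh11*. None of the 6 tested (*Myh9*, *Myh10*, *Myh14*, *Myl6*, *Myl12a*, *Myl12b*) was called by limma, DESeq2 or edgeR, and their median log2 fold change was 0.10. Only *Myl6* had an unadjusted p under 0.05 in limma. It was higher in hypHSCs by 0.54 (adjusted p = 0.0305 from limma), under the fold threshold. Under the scaling on *Hprt* and *Pgk1*, 4 of the 6 were called lower. The genes that control light chain phosphorylation fell in part, with 6 of 14 called lower and 0 higher (2 higher at an unadjusted p under 0.05, 0 by DESeq2 and 1 by edgeR). The largest falls were those of *Ppp1r14a*, which encodes the myosin phosphatase inhibitor CPI-17 (log2 fold change -6.55, 0 to 28.3 normalized counts in hypHSCs and 147 to 850.4 in qHSCs), and *Prkg1*, the cGMP-dependent kinase (-5.10, 3.02 to 133 and 1545 to 2798). *Mylk*, the kinase that phosphorylates the light chain, is not among the 2 largest falls and was added after its values were seen. It was 343 to 1098 in hypHSCs and 4988 to 7806 in qHSCs (-3.22, standard error 0.28, adjusted p = 5.03e-06 from limma).

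The thin filament genes divided. *Tagln* (chromosome 9, 45840926 to 45847356), encoding transgelin or SM22α, an actin-bundling protein, had 1323, 830.3, 534, 272 and 180.0 normalized counts in hypHSC 1 to 5 and 3006, 3164, 5226, 3728 and 3315 in qHSC 1 to 5. The highest hypHSC library was below the lowest qHSC library. Its log2 fold change was -2.87 (standard error 0.47, adjusted p = 0.000471 from limma, exact permutation p = 0.00794). qHSC 3 was the highest of all libraries for *Tagln*, as it was of the qHSCs for *Acta2*. Other genes of the annotation cover 66.7% of the exon bases of *Tagln*, most of them a long non-coding RNA on the opposite strand, so its reads cannot be assigned to 1 strand. Such RNAs cover less of *Vim* (12.3%), *Myl9* (7.37%), *Des* (5.60%) and *Tpm1* (4.58%), and no other gene overlaps the exons of *Tpm2*, *Myh11* and *Actg2*.

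*Tpm2* (chromosome 4, 43513724 to 43523554), the β-tropomyosin, fell like *Tagln*. It had 474, 282, 155, 189 and 165 normalized counts in hypHSC 1 to 5 and 1429, 1232, 2108, 1284 and 1580.2 in qHSC 1 to 5, with no overlap. The log2 fold change was -2.70 (standard error 0.32, adjusted p = 4.39e-05 from limma, exact permutation p = 0.00794). *Tpm1* (chromosome 9, 66929875 to 66956544), the α-tropomyosin gene, which also makes non-muscle isoforms, did not. Its values were 5192, 4176, 3530.1, 6836 and 6393 in hypHSC 1 to 5 and 4647, 7206, 11252, 6139 and 10331 in qHSC 1 to 5, and the groups overlapped. The difference, -0.57 on the log2 scale (standard error 0.28, 95% interval -1.17 to 0.04, adjusted p = 0.111 from limma), did not pass the test, and it was called, at -1.92, only under the scaling on *Hprt* and *Pgk1*. Counts per gene do not tell the isoforms of either gene apart.

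*Cnn1* (chromosome 9, 22010549 to 22020926), encoding calponin 1, a late marker of the contractile state, was near the floor. It had 30, 4, 16, 0 and 0 reads in hypHSC 1 to 5 and 0, 0, 1, 0 and 1 in qHSC 1 to 5. Every qHSC library was at or under the floor, and 3 hypHSC libraries lay above it (exact permutation p = 0.167). The spread among the hypHSCs left the difference unresolved. *Elof1*, on the opposite strand, covers 35.1% of the exon bases of *Cnn1* and had 2017 to 3646 normalized counts in all libraries.

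Of the 9 related thin filament genes tested, 4 were called lower and 1 higher. *Cnn3* (343 to 1431 normalized counts in hypHSCs, 12833 to 23782 in qHSCs) and smoothelin, *Smtn* (75.5 to 388 and 1938 to 4513), had the largest falls, by 4.39 and 4.08 on the log2 scale. *Tpm3*, a further tropomyosin gene whose isoforms were not told apart, rose from 5721 to 7923 in qHSCs to 13755 to 21486 in hypHSCs (log2 fold change 1.25, standard error 0.19, adjusted p = 0.000273 from limma). However, *Tpm3* was under the fold threshold with equal totals (0.90) and at -0.09 when scaled on *Hprt* and *Pgk1*. With equal totals the list had 5 genes called lower and 0 higher. *Tpm4*, another tropomyosin gene, had a log2 fold change of -0.30 and was not called.

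**Figure D2:**
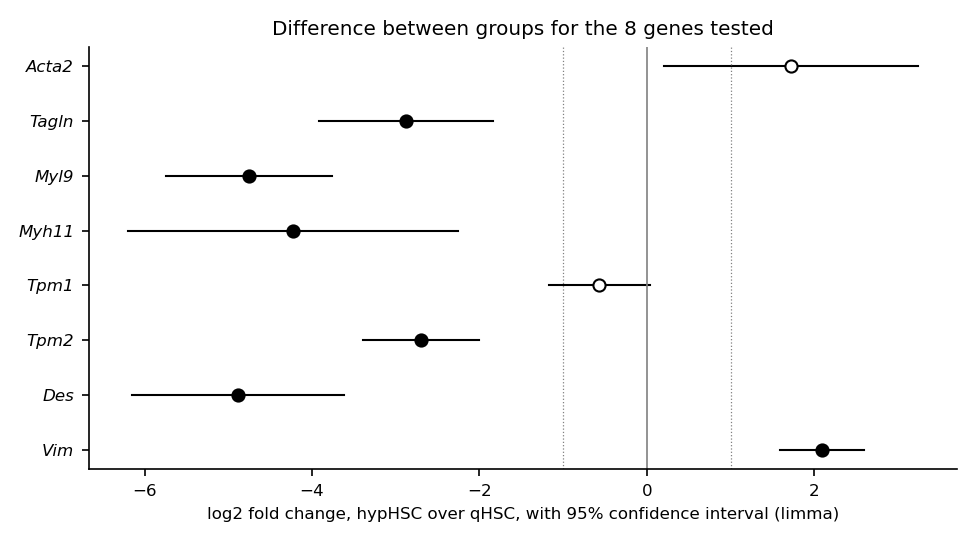
Difference between the groups for the 8 genes tested, as the log2 fold change of hypHSCs over qHSCs (x axis) with the 95% confidence interval from limma. Filled points were called, open points were not, and dotted lines mark the fold threshold. The intervals of *Tagln*, *Myl9*, *Myh11*, *Tpm2* and *Des* lie below it and that of *Vim* above it.

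The intermediate filament genes moved in opposite directions. *Des* (chromosome 1, 75336936 to 75345223), encoding the muscle filament protein desmin, which also marks HSCs in rodents, had 181, 294, 121, 35.7 and 27.2 normalized counts in hypHSC 1 to 5 and 2694, 3169, 2737, 2381 and 2755 in qHSC 1 to 5. It varied 10.8-fold among the hypHSCs and 1.33-fold among the qHSCs, and the groups did not overlap. The log2 fold change was -4.89 (standard error 0.58, adjusted p = 4.73e-05 from limma, exact permutation p = 0.00794). *Vim* (chromosome 2, 13578763 to 13587637), the vimentin of mesenchymal cells, which leukocytes also express, had 42445, 37041, 28419.5, 33000.5 and 59324 normalized counts in hypHSC 1 to 5 and 8706, 8512, 12993, 8086 and 7975 in qHSC 1 to 5. All hypHSC libraries lay above all qHSC libraries, and qHSC 3 was again the highest of its group. The log2 fold change was 2.09 (standard error 0.23, adjusted p = 2.51e-05 from limma, exact permutation p = 0.00794). It became 0.74, below the fold threshold, when the libraries were scaled on *Hprt* and *Pgk1*, both of which were themselves called higher in hypHSCs (1.25 and 1.44).

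Of 9 other genes of intermediate filaments and their linkers tested, 5 were called higher and 2 lower, which became 4 and 4 with equal totals and 3 and 4 when scaled on *Hprt* and *Pgk1*. The glial filament gene *Gfap*, used as a marker of quiescent HSCs, fell furthest (log2 fold change -6.60, 0 to 39.1 normalized counts in hypHSCs and 402 to 812 in qHSCs). The epithelial keratins rose, with *Krt19* at 33.3 to 710.1 normalized counts in hypHSCs and 0 to 8.15 in qHSCs (6.16) and *Krt8* at 540.0 to 3381 and 23.9 to 159 (3.80), and for both hypHSC 1 was the highest library. The fitted changes of *Gfap*, *Krt19* and *Ppp1r14a*, which had 0 in some libraries, depend on the pseudocount. The rise of the keratins came with that of all 5 cholangiocyte markers tested, a list that holds *Krt19* and also *Spp1*, and whose sum was carried by *Spp1* (160907 to 335921 normalized counts in hypHSCs). The other 5 markers of the list summed to 797 to 6833 in hypHSCs and 4.72 to 56.1 in qHSCs. What share of the keratin reads such cells gave was not tested.

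Compared per exon length, as FPKM (mean ± SD, n = 5 libraries), the order of the 10 genes differed between the groups. The length joined all annotated exons of a gene, so the order of genes and their shares of a sum depend on the annotation. In the study's own FPKM *Des* was higher in both groups than here, while *Vim* was close. In qHSCs *Vim* (59.9 ± 16.6), *Tagln* (55.5 ± 16.1) and *Myl9* (49.4 ± 9.51) led and did not differ beyond their spread. *Tpm1* (29.9 ± 10.9), *Des* (16.3 ± 1.75) and *Tpm2* (11.1 ± 2.96) came next, and *Acta2* (3.96 ± 4.98) stood seventh. In hypHSCs the FPKM of *Vim* (198 ± 42.6) was far above that of *Tpm1* (15.2 ± 2.80), which was followed by *Tagln* (7.55 ± 5.62) and *Acta2* (6.27 ± 2.93), a pair within each other's spread. *Myl9* (1.79 ± 1.51), *Tpm2* (1.43 ± 0.782) and *Des* (0.635 ± 0.534) were lower, and their spreads overlapped. *Cnn1*, *Actg2* and *Myh11* were under 0.2 FPKM in both groups on average. By rank among all genes with an exon length, *Myl9* stood at 776 in qHSCs and 6234 in hypHSCs, *Tagln* at 694 and 2755, and *Vim* at 637 and 196.

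**Figure D3:**
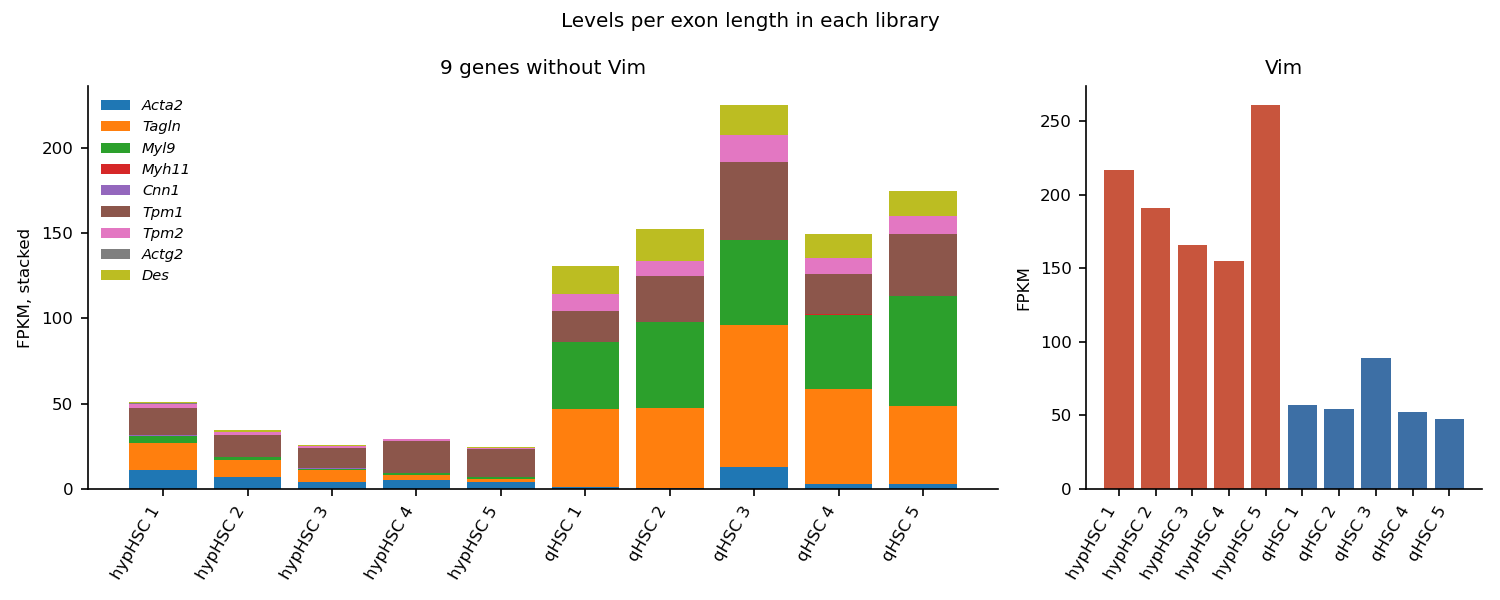
FPKM in each library, stacked for 9 genes on the left and for *Vim* alone on the right. The 9 genes sum to 24.3 to 51.1 FPKM in hypHSCs and 131 to 225 in qHSCs, and *Acta2* takes a larger share of the smaller sum.

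Without *Vim*, the 9 genes summed to 51.1, 34.6, 25.9, 29.3 and 24.3 FPKM in hypHSC 1 to 5 and to 131, 152, 225, 149 and 175 in qHSC 1 to 5. The make-up of that sum also differed. *Acta2* held 15.7% to 21.7% of it in hypHSCs and 0.362% to 5.65% in qHSCs, and *Tpm1* held 30.6% to 68.0% and 13.6% to 20.6%. *Myl9* held 2.45% to 8.50% in hypHSCs and 22.2% to 36.8% in qHSCs. Ratios of FPKM within a library do not depend on how libraries are scaled, and they were chosen after the values had been seen, so they carry no test. The ratio of *Acta2* to *Tagln* was 0.559 to 2.24 in hypHSCs and 0.0118 to 0.153 in qHSCs, and that of *Acta2* to *Myl9* was 2.56 to 6.40 and 0.011 to 0.255. In qHSC 3 these ratios were the highest of the qHSCs but below every hypHSC library. *Vim* to *Des* was 136 to 2359 in hypHSCs and 2.91 to 5.14 in qHSCs, and *Tpm1* to *Tpm2* 5.74 to 20.3 and 1.71 to 3.43.

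Single libraries stood high or low for several genes at once. Among the hypHSCs, hypHSC 1 was the highest for *Acta2*, *Tagln*, *Myl9*, *Cnn1*, *Tpm2* and *Actg2*, and hypHSC 3 was the lowest, alone or tied, for 6 of the 8 genes tested. hypHSC 1 also had the most mitochondrial reads and the highest sum of mural cell markers, 4902 against 1467 to 2227 in the other hypHSCs and 143702 to 258486 in qHSCs. Of that sum *Rgs5* gave 3586. Most genes of the list were highest in hypHSC 1, but *Kcnj8*, *Rgs4* and *Pln* were higher in another hypHSC. Its sums of quiescent HSC markers (24185) and portal fibroblast markers (19189) were also the highest of the hypHSCs. Of the 8 mural markers tested, 5 were called lower in hypHSCs, among them *Rgs5*. Without hypHSC 1 the log2 fold changes were 1.49 for *Acta2* (not called), -3.23 for *Tagln*, -5.15 for *Myl9*, -2.96 for *Tpm2* and -5.13 for *Des*. The part of mural or other cells in the levels of hypHSC 1 was not tested. hypHSC 1 and 2, the libraries after 13 weeks of diet, were the 2 highest hypHSCs for *Acta2*, *Tagln*, *Myl9*, *Tpm2* and *Des*, and with the 12-week libraries alone against all qHSCs these changes were 1.35 for *Acta2*, -3.60 for *Tagln*, -5.43 for *Myl9*, -3.14 for *Tpm2* and -5.77 for *Des*.

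Among the qHSCs, qHSC 3 was the highest for *Acta2*, *Tagln*, *Tpm1*, *Tpm2* and *Vim* but the lowest for *Myh11*, and its *Des* level lay in the middle of the group. Markers of activated HSCs summed to 68142 in qHSC 3, against 41769 to 46252 in the other qHSCs and 73574 to 144533 in hypHSCs. *Timp1* had 5311 normalized counts in qHSC 3 against 458 to 693 in the other qHSCs, *S100a6* 567 against 94.6 to 192, and *Lgals1* 30478 against 12166 to 15222. Not every activation marker followed: *Lox* at 48.8 lay among the other qHSCs (12.7 to 52.5). The quiescent HSC sum (751344) and the mural sum (143702) were lowest in qHSC 3, while its *Lrat* (90181) was above that of qHSC 4 (74761). Macrophage markers did not mark it out, with 10820 in qHSC 3 and 5070 to 117851 in the others. Whether a partly activated preparation gave this pattern was not tested. Without qHSC 3 the log2 fold changes were -2.74 for *Tagln*, -4.77 for *Myl9*, -4.42 for *Myh11*, -0.42 for *Tpm1* (not called), -2.57 for *Tpm2*, -4.89 for *Des* and 2.22 for *Vim*, so leaving it out changed the call of *Acta2* alone.

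**Figure D4:**
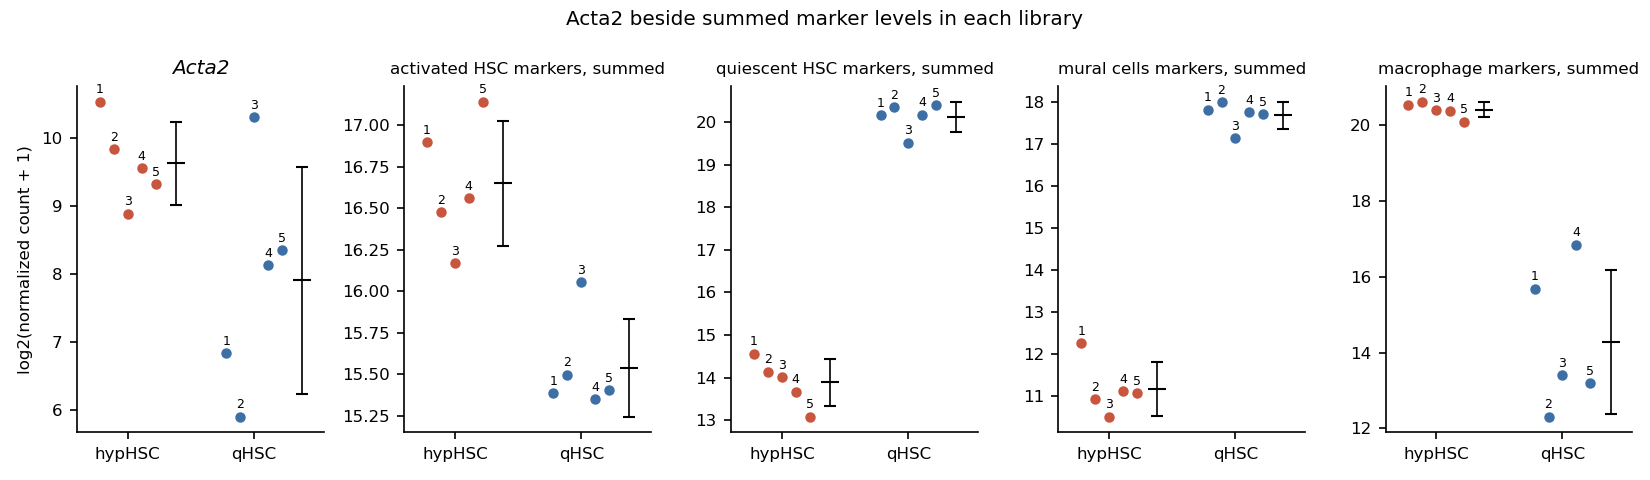
*Acta2* in each library as log2(normalized count + 1), beside the summed markers of 4 cell types or states on the same scale, with the mean and SD of 5 libraries and each panel on its own axis. In qHSC 3 *Acta2* (1259) and the activated HSC sum (68142) are the highest of the qHSCs, the quiescent HSC and mural sums are the lowest, and the macrophage sum is within the range of the others.

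The genes whose levels moved most like those of *Acta2* from library to library, once the mean of each group had been subtracted, were *Pgs1* (Pearson's r 0.952 over 10 libraries), *Ccl5* (0.947), *Crip1* (0.931), *Cxcl9* (0.921), *Plaat3* (0.914), *Atp6v0d2* (0.904), *Cxcl10* (0.904) and *Ptgs2* (0.896). *Ccl5*, *Cxcl9* and *Cxcl10* encode chemokines and *Ptgs2* encodes cyclooxygenase-2. All 8 were highest in qHSC 3 among the qHSCs: *Cxcl10* had 9110 normalized counts there, against a qHSC median of 2591, and *Ccl5* 2539 against 264.5. The genes were picked for this correlation, and *Acta2* was itself far higher in qHSC 3 than in the other qHSCs. A peak in qHSC 3 was thus largely given by the choice and is no separate result about that library. Among the hypHSCs, *Ccl5*, *Crip1*, *Cxcl9*, *Plaat3* and *Cxcl10* were highest in hypHSC 1, as *Acta2* was, whereas *Atp6v0d2* was lowest there. The r of *Atp6v0d2* came from the qHSCs (0.98), where its median of 2.25 normalized counts was near the floor. Within the hypHSCs its r was -0.51, so it did not move like *Acta2* in that group. *Ptgs2* had an r of 0.36 within the hypHSCs, and the others listed had 0.73 (*Cxcl10*) to 0.96 (*Ccl5*). Between the genes described here, r after the same subtraction ran from -0.44 (*Tpm1* and *Des*) to 0.88 (*Tagln* and *Des*), with a median of 0.43 over 28 pairs, and *Myl9* and *Tpm2* reached 0.86. *Acta2* followed *Tpm2* (0.65) and *Tpm1* (0.55) more closely than *Des* (0.11) or *Myh11* (0.08). The points share the size factor of their library, and the values are a description.

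Further genes that anchor or regulate the contractile apparatus are given from lists chosen by function. Of 15 crosslinker and adhesion genes tested, 9 were called lower and 0 higher (1 higher at an unadjusted p under 0.05 in limma, 0 by DESeq2 and 0 by edgeR), with a median log2 fold change of -1.72. *Parva*, which encodes an actin-binding partner of integrin-linked kinase, fell from 3497 to 5636 normalized counts in qHSCs to 231 to 1025 in hypHSCs (-3.07, standard error 0.35), and *Actn4*, α-actinin 4, from 26112 to 53631 to 1714 to 9069 (-2.89, standard error 0.41). Of 8 genes tested on the SRF axis, 2 were called lower, near the share of 21.7% over all genes tested. These were *Ccn1* and *Ccn2*, matricellular targets of SRF and of YAP. On this list 0 genes were called higher (0 at an unadjusted p under 0.05, 0 by DESeq2 and 0 by edgeR). *Ccn1* was 809 to 4945 normalized counts in hypHSCs and 15774 to 43687 in qHSCs (-3.45, standard error 0.47), and *Ccn2* 22.7 to 83.6 and 289 to 477 (-3.34, standard error 0.40). *Srf* itself was low, at 6.05 to 79.7 normalized counts in hypHSCs and 66.9 to 145 in qHSCs, and its change of -1.56 did not pass the test (adjusted p = 0.0553 from limma), although it was called in 6 alternatives, DESeq2 among them. The coactivator genes *Mrtfa* (0.18) and *Mrtfb* (0.39) were not called in any alternative, and the sign of both turned when the libraries were scaled on *Hprt* and *Pgk1*, that of *Mrtfa* also with equal totals. With equal totals, 5 of the 8 genes of this list were called lower. *Myocd*, the smooth muscle coactivator, had 0 in 7 libraries, 132 normalized counts in hypHSC 1, 11.6 in hypHSC 3 and 29.9 in qHSC 1.

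**Figure D5:**
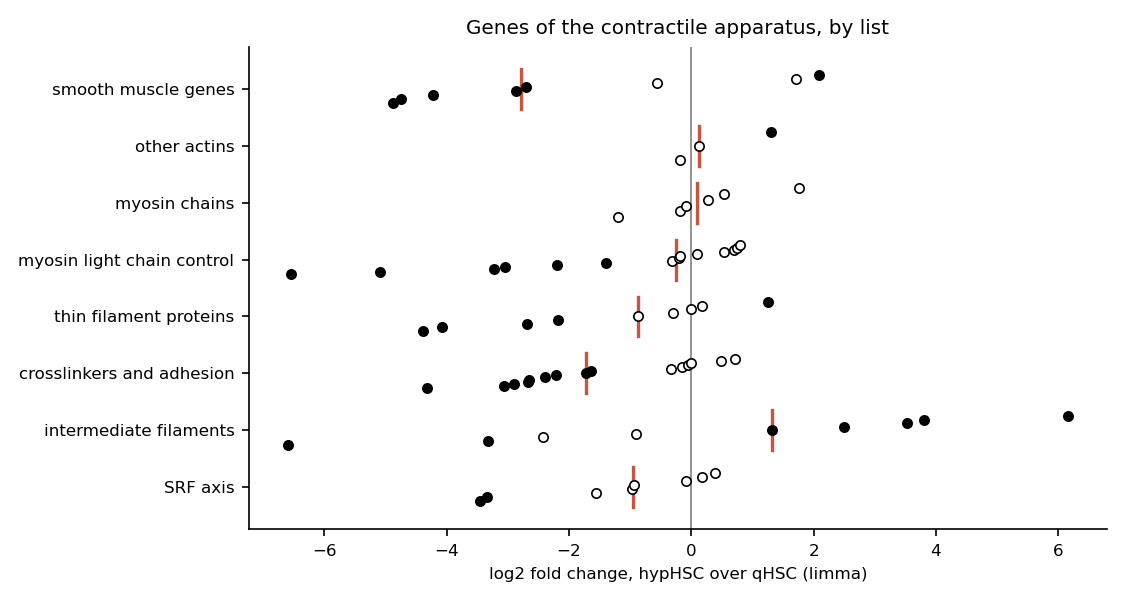
Log2 fold change of hypHSCs over qHSCs (x axis) for each gene tested, by list, with called genes filled, genes not called open and the median of the list as a red bar. Called genes of the crosslinker and adhesion list (9 of 15) and of myosin light chain control (6 of 14) all lie below 0, and 5 of 9 intermediate filament genes were called above it.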

How the data were processed

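Per the methods, RNA from sorted cells was reverse-transcribed from its poly(A) tail, amplified and sequenced from both ends without strand, mapped to mm39 with STAR (2.7.5a in the submitters' processing notes) and counted with featureCounts (Subread 1.5.0). The deposited signal is these counts divided by the authors' DESeq2 size factors (0.661 to 1.20 in hypHSCs, 1.10 to 1.33 in qHSCs). Multiplying back gave whole reads for 100% of values (within 0.01 normalized counts), which were used for depth, FPKM, DESeq2 (1.42.0) and edgeR (4.0.16).

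Genes carrying a symbol and reaching 10 normalized counts in 5 or more libraries were tested as log2(normalized count + 1) with limma (3.58.1, intensity trend, R 4.3.3), unpaired, with Benjamini-Hochberg adjustment over 14630 genes. The fitted changes of low genes depend on the pseudocount of 1, and that of *Myh11* was larger than under DESeq2 and edgeR. Exact two-sided permutation tests covered 252 arrangements of log2 values. FPKM used GENCODE M39 exon lengths, and promoters came from the RefSeq table. The fit was tested on simulated data with known changes and the same dispersion in both groups. That test does not cover the unequal spread of the real groups.

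The genes, lists and tests were chosen with earlier results of these data known. Named besides the 10 genes are, per list, up to 2 rises and 2 falls among called genes averaging 100 normalized counts or more, *Srf*, *Myocd*, *Mrtfa* and *Mrtfb*, up to 3 markers per marker list, and the 8 genes most like *Acta2*; others were named after their values were seen. Alternatives changed 1 choice at a time: pseudocount, filter, scaling, tool, replicate block, diet time, age, and each library left out. The exception was edgeR, which also used its own scaling of the libraries, so tool and scaling changed together there.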

Additional observations from a re-analysis of the deposited data

Results flagged for a closer look

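In groups of 5 libraries, the highest and the lowest library were compared with the rest of their group for each gene described here and for the summed marker lists, and a library was singled out where its gap to the nearest other exceeded 0.71 of the whole range (Dixon's 95% value). Chance singles out about 1 in 20 groups of normally distributed values, and 7 of 37 groups had such a library. Normalized counts and their sums were compared without logs, and skewed values can be singled out more often. In qHSC 3, *Acta2* stood at 1258.9 normalized counts, *Vim* at 12993 and the activated HSC markers at a sum of 68142. In hypHSC 1, *Actg2* stood at 32.3 normalized counts and the mural cell markers at a sum of 4902. *Myh11* in hypHSC 2 stood at 19.7 normalized counts, with 19 reads, and *Actg2* in qHSC 5 at 4.50, with 6 reads. For *Actg2* in both groups and *Myh11* in hypHSCs most other libraries were at 0, so the rate of 1 in 20 does not apply to these 3. On the log2 scale *Acta2* was 10.3 in qHSC 3 and 5.90 to 8.35 in the other qHSCs, a gap below 0.71 of the range. The gap of the mural sum in hypHSC 1 was also below it on that scale. Those of *Vim* (13.7 in qHSC 3, 13.0 to 13.1 in the others) and of the activated HSC sum stayed above it.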

How the results depend on the processing

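Across 24 alternatives, 10 of which left out 1 library each, no direction of the 8 genes tested was reversed, and *Tagln*, *Myl9*, *Myh11*, *Tpm2* and *Des* were called lower wherever they were tested (*Myh11* was below the stricter filter on a mean of 100 normalized counts). Of the results per gene, 186 kept their side of the threshold, 4 came past it and 1 no longer passed. Scaling the libraries on *Hprt* and *Pgk1* shifted the median of all genes by -1.32 (same total -0.35, same upper quartile 0.11) and gave 9878 called genes against 5779, with 12.2% of the calls higher in hypHSCs against 45.0% (32.4% with equal totals). Under it 0 of the 10 genes were called higher, since *Vim* came to 0.74, and *Tpm1* was called at -1.92. The number of genes called higher was 2, *Acta2* and *Vim*, with the same upper quartile and with qHSCs aged 36 weeks only, and between 1 and 2 with 1 library left out, where 2 came without qHSC 3. Leaving out 1 library gave *Acta2* changes of 1.22 to 2.32 and *Des* changes of -5.30 to -4.46. With the replicate number as a replicate block, 5786 genes were called and no call of the 10 genes changed (*Acta2* adjusted p = 0.0919 from limma). The numbers do not pair the libraries: deviations of same-numbered libraries correlated at 0.008 to 0.13, and only hypHSC 5 correlated best with its own number. The causes were not tested. Low counts limit *Cnn1*, *Actg2* and *Myh11*, at or under 3 reads in many libraries.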

Other observations

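Markers of the other liver cell types that a sorted stellate cell preparation can hold did not move alike. Of 5 portal fibroblast markers tested, 4 were called higher in hypHSCs and 0 lower by limma (1 lower at an unadjusted p under 0.05, 0 by DESeq2 and 0 by edgeR), and their sum was 8385 to 19189 normalized counts in hypHSCs and 643 to 6572 in qHSCs. Of 3 mesothelial markers tested, 2 were called higher. Endothelial markers were low in both groups, with sums of 411 to 790 in hypHSCs and 995 to 2383 in qHSCs, and 1 of 6, *Stab2*, was called higher and 2 lower. The call of *Stab2* did not hold in 13 of 24 alternatives, and edgeR called 0 of the 6 higher and 1 lower. For hepatocyte markers 0 of 8 were called by limma, DESeq2 or edgeR and 0 had an unadjusted p under 0.05, and their sum was 10945 to 103082 in hypHSCs and 21734 to 77600 in qHSCs. Of 15 activated HSC markers, 6 were called higher in hypHSCs and 5 lower, with *Ltbp2* and *S100a6* among the rises and *Postn* and *Pdgfrb* among the falls, which were named after their values were seen. Scaled on *Hprt* and *Pgk1*, 3 of these 15 were called higher and 5 lower.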
